A study of Mus musculus with 48 samples.

Results

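The 44 genes described here encode factors that build ribosomes: the machinery of RNA polymerase I, nucleolar chaperones, core proteins of small nucleolar ribonucleoproteins (snoRNPs), and processing factors of the small and the large ribosomal subunit. They were taken by name from a list of ribosome biogenesis genes and make up 44 of the 47643 genes counted. Each was matched to its Ensembl gene by symbol. Of the 44, 6 belong to the polymerase I machinery, 5 are nucleolar chaperones or scaffolds, 7 are snoRNP core proteins, 17 process the small subunit and 9 process the large subunit.

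Ribosomes are assembled in the nucleolus. RNA polymerase I transcribes one long precursor, snoRNPs guide its chemical modification, and processing factors trim and fold it while ribosomal proteins join. Growing cells raise this production, and the kinase complex mTORC1, which the Tsc2 protein tuberin restrains, is a known stimulus of polymerase I transcription, in part through the initiation factor Rrn3. Sensory neurons that regrow an axon are known to enter a growth state with raised protein synthesis.

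RNA was sequenced from nociceptors of the L4 dorsal root ganglion of mice aged 8 to 9 weeks, on a mixed C57BL/6 and AJ background, with 2 males and 2 females in each of 4 groups. All mice carried Nav1.8-Cre and the Rosa26-ZsGreen reporter, by which the cells were sorted, so Cre acted in Nav1.8-expressing neurons. Control mice were Tsc2 flox/+, which means that Cre removed 1 copy of Tsc2 in their neurons too. Conditional knockout (cKO) mice had a floxed and a null Tsc2 allele, leaving these neurons with no intact copy. Ganglia on the side of a forceps crush of the sciatic nerve were taken 3 days after injury, and contralateral ganglia served as uninjured. The labels do not state whether equal replicate numbers on both sides mark the same animal. Each sample was sequenced as 3 technical aliquots of about 100 cells, whose counts were summed here, giving 4 samples per group. In such bulk RNA, fewer cells expressing a gene and less RNA per cell cannot be told apart.

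The 48 libraries held 5159353 to 34228180 counts in genes, and the 16 summed samples 36773198 to 63365268. Tsc2 was lower in cKO samples, by -1.24 ± 0.23 (log2 change ± SE) in uninjured neurons (edgeR adjusted p = 0.00101) and by -1.48 ± 0.23 after crush (adjusted p = 0.00106). Scn10a, which encodes Nav1.8, had 673 ± 135 CPM (counts scaled to TMM-adjusted library size; SD, n = 4) in uninjured control, 608 ± 35.6 in uninjured cKO, 352 ± 60.4 in crush control and 266 ± 63.7 in crush cKO samples. None of 16 nociceptor markers was at 0 throughout a group; crush in control raised 3 and lowered 8 of them, with a median log2 change of -0.76, and crush in cKO lowered 4. Scn10a itself fell by -0.93 ± 0.17 (edgeR adjusted p = 0.00122) and -1.19 ± 0.17 (adjusted p = 0.000796) in these comparisons, and deletion without injury raised 2 and lowered 4 of the 16. Markers of other cells were detected to different degrees. Ptprc of leukocytes reached at most 0.622 CPM, C1qa of macrophages 2.02 CPM and Pecam1 of endothelium 1.59 CPM, while Fabp7 and Apoe of satellite glia reached 445 and 132 CPM. Summed Schwann cell markers (10 genes) lay between 1343 and 1977 CPM and summed macrophage markers (12 genes) between 5.64 and 78.9 CPM over all samples. Summed vascular and fibroblast markers (13 genes) were 61.3 to 244 CPM in uninjured control, 143 to 249 in uninjured cKO, 30.5 to 89.2 in crush control and 143 to 421 in crush cKO samples. Summed satellite glia markers (10 genes) were 645 to 1058 CPM in uninjured control, 839 to 1090 in uninjured cKO, 679 to 1179 in crush control and 1150 to 1662 in crush cKO samples. Summed lymphocyte and neutrophil markers (8 genes) were 0.325 to 2.78, 6.53 to 9.86, 10.2 to 30.4 and 25.9 to 38.9 CPM in the same order. Summed markers of large-fibre neurons (8 genes) were 595 to 1075, 496 to 770, 395 to 561 and 372 to 513 CPM, again in that order. Crush in control raised 0 and lowered 2 of these 8. The part of the nociceptor and other markers in the results below was not tested.

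All 44 members passed the filter on low counts, which kept 19048 genes. No member was at 0 in a summed sample, the lowest count was 19 and the median count was 1705. Together the members took 0.228 to 0.254% of a sample's gene counts. A level per length, the CPM divided by the kilobases of merged exons (RPKM), was computed for the uninjured control samples. Merged exons join those of all annotated transcripts of a gene, so ranks by RPKM depend on the annotation. Ncl, for example, had 164 ± 16.3 CPM over 10188 merged bases, which gave 16.1 RPKM. By RPKM Nop10 was highest at 207.5 ± 5.06 (SD, n = 4), followed by Rrn3 at 106.7 ± 2.87, Nhp2 at 79.7 ± 6.20 and Nop16 at 45.9 ± 4.40. The snoRNP methyltransferase gene Fbl stood last at 0.146 ± 0.019 RPKM. The next 4 from the bottom, Polr1b (0.814 ± 0.394), Heatr1 (0.883 ± 0.045), Polr1a (0.890 ± 0.121) and Utp20 (0.905 ± 0.171), lay within each other's spread. Levels of genes that share sequence with other genes are uncertain, because a read that aligned to more than 1 place was left uncounted: 55.9% of the distinct 50-base stretches of Ddx18 also occur in other genes, 24.3% of Npm1, 23.3% of Pes1, 19.7% of Fbl, 18.7% of Nop56 and 10.8% of Polr1d. Tsr1 and Bysl overlap a gene on the other strand, Srr over 32.3% and Ccnd3 over 9.37% of their exon bases, where unstranded reads cannot be assigned to either gene.

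Sequences around the start sites were read for 2 motifs. CACGTG is the E-box that MYC and related factors can bind, and CCGGAAG is a form of the motif of ETS factors. On the other strand the latter reads CTTCCGG. RefSeq promoter entries (GRCm38.p6, the mm10 assembly), each 250 bases before to 50 bases after a start site, matched 39 of the 44 members, all but Npm1, Fbl, Rrp12, Bop1 and Rrs1. CACGTG occurred in 9 of the 39 windows (23.1%), against 7.24% of all 27025 windows and 9.56% of the 12624 windows of tested genes. It lay before the start site only in Rrn3 and Nop2. In Mybbp1a, Wdr43, Utp4, Utp20, Ltv1, Tsr1 and Pes1 it lay only after the start site. CCGGAAG occurred on either strand in 13 of the 39 (33.3%), against 9.12% and 15.8%, and 5 windows held both motifs. The same windows were read on both strands for 1 long exact form each of the NRF1 and YY1 motifs. Each form occurred in 0 of the 39. The NRF1 form occurred in 0.977% of all windows and 1.83% of those of tested genes. The YY1 form occurred in 1.5% and 2.72%. Shorter or variant forms were not searched, so these counts do not show that the 2 motifs are absent. The 100 bases before the start site are printed for 4 members, with CACGTG and CCGGAAG matches in capitals. Rrn3 and Nop2 hold matches there. Nat10 and Utp20, whose levels are described below, have neither CACGTG nor CCGGAAG in these bases. Utp20 has a CACGTG after its start site. They lie at chr16:13780599-13780698 (plus strand) for Rrn3, chr6:125131783-125131882 (plus strand) for Nop2, chr2:103761271-103761370 (minus strand) for Nat10 and chr10:88826815-88826914 (minus strand) for Utp20. A match describes the letters and not a bound site.
Rrn3: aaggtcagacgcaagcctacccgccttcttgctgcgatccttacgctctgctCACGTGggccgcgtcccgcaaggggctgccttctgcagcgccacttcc
Nop2: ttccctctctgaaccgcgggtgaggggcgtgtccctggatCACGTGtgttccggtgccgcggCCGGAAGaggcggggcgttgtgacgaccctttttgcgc
Nat10: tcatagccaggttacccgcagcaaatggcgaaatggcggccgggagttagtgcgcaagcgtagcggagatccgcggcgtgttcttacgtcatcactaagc
Utp20: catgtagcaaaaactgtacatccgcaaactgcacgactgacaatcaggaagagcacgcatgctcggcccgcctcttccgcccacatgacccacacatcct

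The first question was how nerve crush changed these genes in control neurons. Among the 44 members, 8 were higher and 1 was lower past an adjusted p of 0.05 (edgeR quasi-likelihood test, Benjamini-Hochberg adjustment over all genes tested). As a share of the members called, 20.5% is close to the 19.7% of all genes called. By direction, 18.2% of members rose against 11.0% of all genes, and 2.27% fell against 8.68%. The log2 change was above 0 in 34 of 44 members, with a median of 0.22 against -0.03 over all genes. In 10 members every crushed sample was above every uninjured one, and in 2 every one was below, where 11.2% and 9.80% of all genes did so. The risers were 5 small subunit factors (Rrp12, Utp20, Nat10, Bysl and Rrp9) and 3 nucleolar proteins (Gnl3, Mybbp1a and Ncl), and the member that fell was Dkc1.

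**Figure D1:**
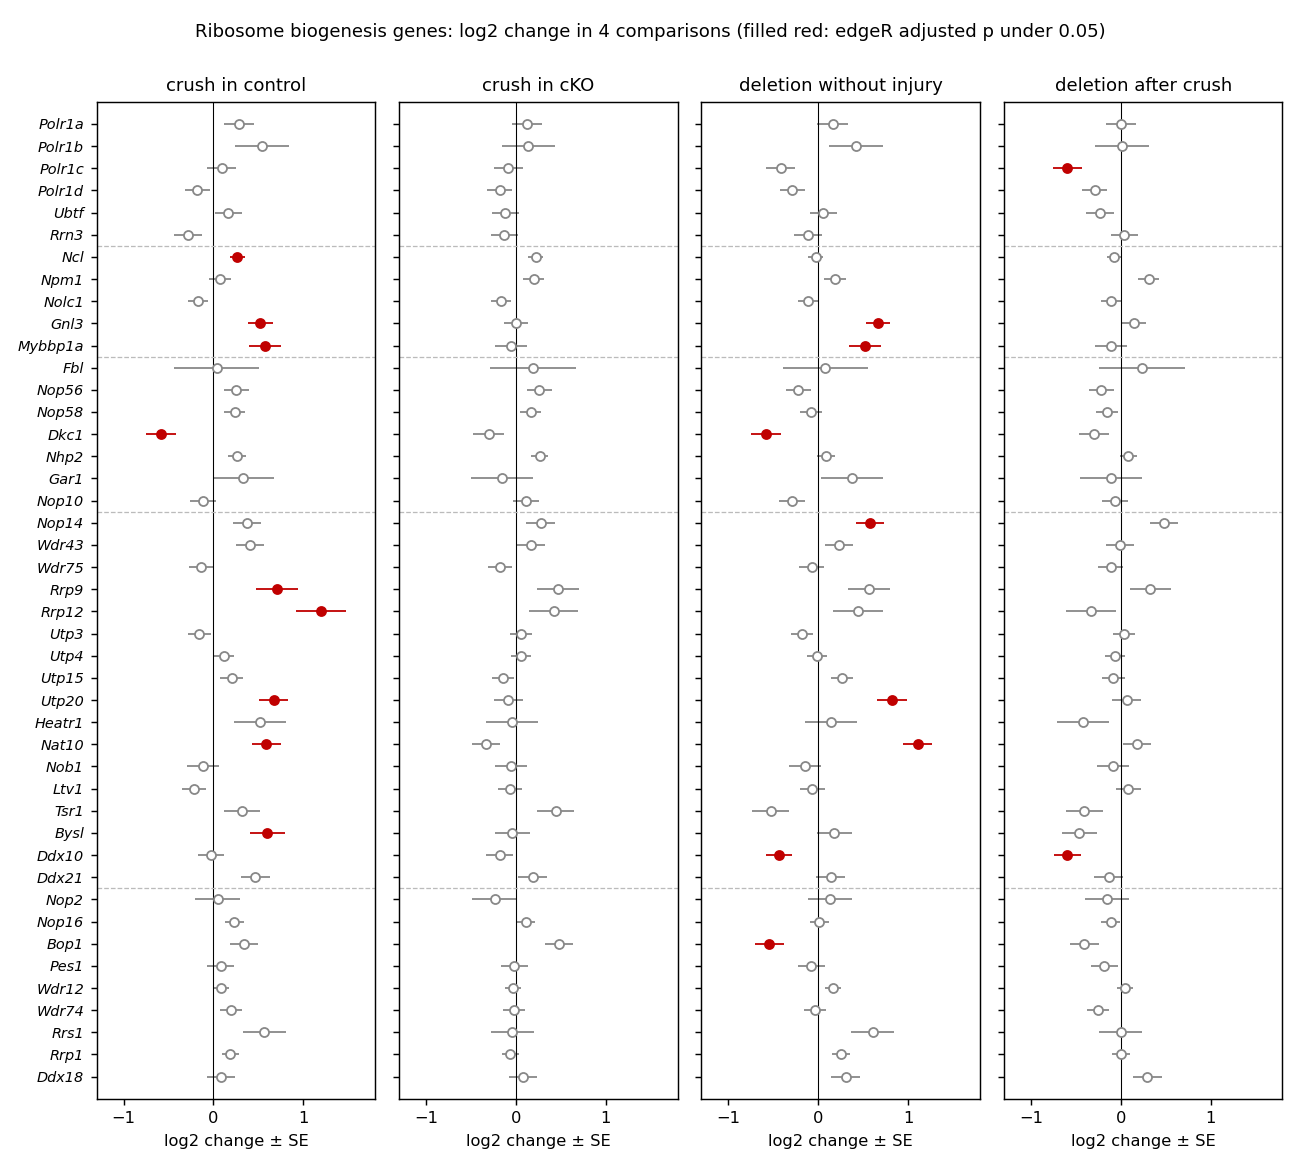
Log2 change (x axis, ± SE) of the 44 members (rows, by role, dashed lines between roles) in 4 comparisons; filled red points passed an edgeR adjusted p of 0.05 and open points did not. In the crush in control panel 34 of 44 points lie right of 0, and in the crush in cKO panel 21 do and no point is filled.

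Among the small subunit factors, Rrp12, a HEAT-repeat protein of pre-ribosome maturation and export, had 10.9, 7.23, 8.77 and 4.26 CPM in the uninjured control samples and 29.1, 12, 13 and 17.4 CPM after crush. The groups did not overlap, and crush control replicate 1 stood highest. Its log2 change was 1.20 ± 0.28 (edgeR adjusted p = 0.00665), the largest among the members, and 0.86 without that sample (adjusted p = 0.0305). Utp20, a large scaffold protein of the small subunit precursor, had 7.52, 7.94, 10.7 and 10.8 CPM in uninjured control and 13.6, 15.1, 13.6 and 16.4 CPM in crush control samples. All crushed samples were higher, with a log2 change of 0.67 ± 0.17 (adjusted p = 0.00929). Nat10, the acetyltransferase that modifies small subunit rRNA and tRNA, rose from 7.57, 8.43, 8.66 and 8.67 CPM to 12.7, 11.7, 14.1 and 11.6 CPM, again without overlap, by 0.59 ± 0.16 (adjusted p = 0.0157). Rrp9, a protein of the U3 snoRNP, rose by 0.70 ± 0.23 (adjusted p = 0.0444), and Bysl, the bystin gene, by 0.60 ± 0.20 (adjusted p = 0.0405). Both had overlapping groups: Rrp9 lay between 4.36 and 7.42 CPM without and 6.45 and 11.1 CPM with injury, and Bysl between 16.2 and 22.2 and between 21.0 and 34.2 CPM. The 12 other small subunit factors did not pass, and their log2 changes lay between -0.22 (Ltv1) and 0.52 (Heatr1).

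The calls of Rrp12, Utp20 and Nat10 held in each of the 16 fits that left out 1 sample. That of Rrp9 was lost in 12 of them, at log2 changes from 0.60 to 0.75, and held only without uninjured control replicate 2, crush control replicate 2 or crush cKO replicates 3 or 4. That of Bysl was lost in 8, without uninjured control replicates 2, 3 or 4, uninjured cKO replicates 1, 2 or 4, or crush control replicates 1 or 3, with log2 changes between 0.50 and 0.61. Leaving out a sample of a group outside the comparison also changed the genes kept by the filter (19048 with all samples, 19614 to 19766 without an uninjured cKO sample), the scaling and the shared estimate of spread.

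Of the nucleolar chaperones and scaffolds, Gnl3 encodes nucleostemin, a GTPase needed for large subunit maturation. It had 34.7, 28.7, 38.7 and 40.6 CPM in uninjured control and 45.5, 48.8, 52.0 and 58.6 CPM in crush control samples. No crushed sample was as low as any uninjured one, and the log2 change was 0.52 ± 0.13 (edgeR adjusted p = 0.0116). Ncl encodes nucleolin, an abundant RNA-binding protein of the nucleolus. Its levels were 182, 171, 160 and 144 CPM without and 217, 187, 196 and 189 CPM with injury. The groups were separate but close, with a small rise of 0.26 ± 0.08 (adjusted p = 0.0345), which was lost without uninjured control replicate 3 (0.28, adjusted p = 0.053), uninjured control replicate 4 (0.21, 0.112) or crush control replicate 1 (0.22, 0.115). Mybbp1a, a nucleolar protein that binds transcription factors, rose by 0.57 ± 0.18 (adjusted p = 0.0322), from between 17.7 and 22.6 to between 22.8 and 35.6 CPM. Its call was lost without uninjured control replicates 1 (0.53) or 3 (0.57) or crush control replicates 1 (0.48) or 3 (0.51). Nolc1, a chaperone of snoRNPs, was at -0.17 ± 0.11 and Npm1, nucleophosmin, at 0.07 ± 0.12, neither past the threshold.

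Among the snoRNP core proteins, Dkc1, the pseudouridine synthase dyskerin of the H/ACA particles, went the other way. It had 48, 57.6, 42.1 and 46.6 CPM in uninjured control and 30.3, 33.2, 28.0 and 38.3 CPM in crush control samples. Every crushed sample was lower than every uninjured one, with a log2 change of -0.58 ± 0.17 (edgeR adjusted p = 0.0234), and the call was lost without uninjured control replicate 2 (-0.48), crush control replicate 1 (-0.55) or crush control replicate 3 (-0.49). Its partners in the H/ACA particle did not pass: Nhp2 was at 0.26 ± 0.10 (adjusted p = 0.071), Gar1 at 0.33 ± 0.34 and Nop10 at -0.12 ± 0.15. The core proteins of the C/D particles, which guide ribose methylation, were at 0.25 ± 0.14 (Nop56), 0.24 ± 0.12 (Nop58) and 0.03 ± 0.48 (Fbl). Nop10, the most abundant of this role, had 232, 236, 223 and 230 CPM without and 198, 229, 202 and 218 CPM with injury, so the groups overlapped.

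No member of the polymerase I machinery passed after crush in control neurons. Rrn3, which prepares the polymerase for initiation, had 476, 465, 452 and 449 CPM in uninjured control and 356, 452, 428 and 279 CPM in crush control samples. The highest crushed sample lay within the uninjured range, and the log2 change was -0.28 ± 0.15 (edgeR adjusted p = 0.22). The 2 largest polymerase subunits were at 0.28 ± 0.17 (Polr1a) and 0.54 ± 0.30 (Polr1b), the subunits shared with polymerase III at 0.09 ± 0.16 (Polr1c) and -0.18 ± 0.14 (Polr1d), and the promoter factor Ubtf at 0.17 ± 0.15. None of the 9 large subunit factors passed either, though all 9 log2 changes were above 0, between 0.05 (Nop2) and 0.56 (Rrs1). Nop16 was the most abundant of these by CPM, at 93.4, 75.5, 89.4 and 80.7 CPM without and 85.6, 115, 98.1 and 100.2 CPM with injury, which overlap.

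**Figure D2:**
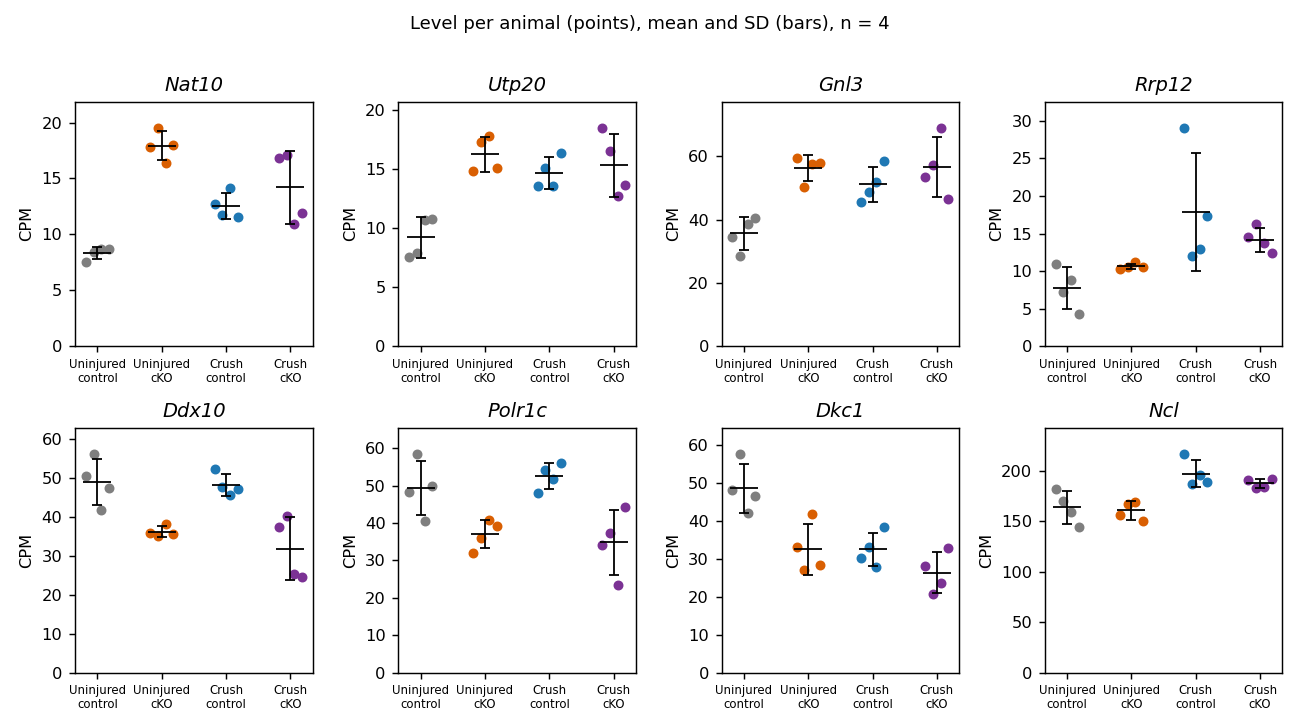
CPM (y axis, from 0) of 8 members in each of the 16 samples by group (x axis); points are samples, bars the mean and SD of 4. Nat10 lies at 7.57 to 8.67 in uninjured control, 16.4 to 19.5 in uninjured cKO, 11.6 to 14.1 in crush control and 11 to 17.1 in crush cKO samples.

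The second question was what loss of Tsc2 did without injury. Of the 44 members 5 rose and 3 fell, 18.2% called against 20.7% of all genes. Rises took 11.4% of members against 11.7% of all genes and falls 6.82% against 9.02%, so the shares were close to the background. The median log2 change was 0.08 against 0.02 over all genes, with 25 members above 0. In 9 members every cKO sample was higher and in 5 every one was lower, where 14.0% and 11.4% of all genes did so. Small subunit factors (Nat10, Utp20 and Nop14) and nucleolar proteins (Gnl3 and Mybbp1a) rose, and Bop1, Dkc1 and Ddx10 fell. This comparison shares its uninjured control samples with that of crush in control neurons, so the values of both are not independent.

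Nat10 changed most, with 17.8, 19.5, 16.4 and 18.0 CPM in uninjured cKO samples against 7.57 to 8.67 CPM in uninjured control. The lowest cKO sample was far above the highest control, and the log2 change was 1.11 ± 0.16, a 2.15-fold level (edgeR adjusted p = 0.00014). Utp20 had 14.9, 17.3, 17.8 and 15.1 CPM, against 7.52 to 10.8 CPM, and rose by 0.82 ± 0.17 (adjusted p = 0.00224). Gnl3 had 59.7, 50.3, 57.7 and 58.1 CPM, against 28.7 to 40.6 CPM, and rose by 0.66 ± 0.13 (adjusted p = 0.00225). For these 3 genes no cKO sample reached down to a control sample, and the calls held in all 16 fits without 1 sample. Nop14, a factor of the small subunit precursor, rose by 0.58 ± 0.16 (adjusted p = 0.0158), from between 22.1 and 25.8 to between 30.1 and 40.0 CPM. Its call was lost without uninjured cKO replicate 2 (0.52, adjusted p = 0.0522). Mybbp1a rose by 0.52 ± 0.18 (adjusted p = 0.0493), to between 26.3 and 31.7 CPM, and its call was lost in 14 of the 16 fits, at 0.46 to 0.58, holding only without crush control replicate 2 or crush cKO replicate 3.

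Dkc1 was at 33.1, 27.0, 41.8 and 28.3 CPM in uninjured cKO samples, all below the 42.1 to 57.6 CPM of uninjured control, though replicate 3 came within 1 CPM of it. It fell by -0.58 ± 0.17 on the log2 scale (edgeR adjusted p = 0.0231), a call lost without uninjured control replicate 2 (-0.48) or uninjured cKO replicates 1 (-0.58), 2 (-0.50) or 4 (-0.52). Nop10 of the same particle had 171, 177, 200.03 and 201 CPM, all below uninjured control, at -0.30 ± 0.15 (adjusted p = 0.17). Nhp2 and Gar1 were at 0.08 ± 0.10 and 0.38 ± 0.34. Bop1, with Pes1 and Wdr12 a member of the PeBoW complex of large subunit maturation, was at 10.7, 19.4, 18.1 and 15.6 CPM against 22.5 to 24.8 CPM, lower in every cKO sample. It fell by -0.55 ± 0.16 (adjusted p = 0.023), a call lost without uninjured control replicate 4 (-0.51) or uninjured cKO replicates 1 (-0.39) or 4 (-0.53). Pes1 was at -0.08 ± 0.15 and Wdr12 at 0.17 ± 0.09, neither past the threshold.

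Ddx10, an RNA helicase of the small subunit pathway (known best from its yeast counterpart), had 50.7, 56.2, 42.0 and 47.5 CPM in uninjured control and 35.9, 35.1, 38.3 and 35.6 CPM in uninjured cKO samples. The cKO samples were all lower, by -0.44 ± 0.15 on the log2 scale (edgeR adjusted p = 0.0459). The call was lost in 11 of the 16 fits, at -0.36 to -0.47, and held only without uninjured control replicate 3 or any 1 of the 4 crush cKO samples. In the polymerase I machinery Polr1c was at -0.42 ± 0.16 (adjusted p = 0.081), Polr1d at -0.29 ± 0.14, Polr1a at 0.16 ± 0.17 and Polr1b at 0.42 ± 0.30, none past the threshold. Rrn3 had 461, 442, 471 and 327 CPM in uninjured cKO samples, overlapping the control, at -0.11 ± 0.15 (adjusted p = 0.67). Utp4, a subunit of the complex that first binds the nascent precursor, had 60.3, 53.2, 60.7 and 68.7 CPM in control and 59.2, 58.5, 65.5 and 58.2 CPM in cKO samples, which overlap. With fewer than 5 samples a group, 1 sample decided several calls: 8 members were called with all samples, 5 without uninjured control replicates 2 or 4, and 4 without uninjured cKO replicates 1, 2 or 4.

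The third question was what crush did in neurons without Tsc2. No member passed the threshold in edgeR or in limma-voom, where edgeR called 5.43% of all genes, 2.57% upwards and 2.86% downwards. DESeq2 called 1, Bop1, upwards, and edgeR called 1, Nhp2, upwards when crush cKO replicate 1 was left out. At an unadjusted p under 0.05 there were 4 members. The median log2 change was -0.02 against 0.00 over all genes, with 21 of 44 above 0. In 3 members every crushed sample was higher (6.86% of all genes) and in 1 every one was lower (7.64%). Rrp12 was at 10.3, 10.5, 11.2 and 10.5 CPM without and 14.5, 16.2, 13.7 and 12.4 CPM with injury, separate groups, at 0.42 ± 0.28 (adjusted p = 0.51). Ncl was at 156, 168, 169 and 150.5 CPM without and 191, 183, 184 and 192 CPM with injury, also separate, at 0.22 ± 0.08 (adjusted p = 0.15), close to the 0.26 ± 0.08 in control neurons. Gnl3 had 53.6, 57.2, 69.1 and 46.5 CPM after crush and overlapped its uninjured cKO level, at 0.00 ± 0.13. Utp20 had 18.5, 16.5, 12.7 and 13.6 CPM, also overlapping, at -0.08 ± 0.16.

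A difference between the crush effects in cKO and in control neurons (cKO minus control) was tested as an interaction term. Of the 44 members 1, Nat10, differed downwards, 2.27% against 1.76% of all genes in either direction and 1.54% downwards. Nat10 had 16.9, 17.1, 11 and 11.9 CPM in crush cKO samples, so that replicates 1 and 2 lay near the uninjured cKO level and replicates 3 and 4 near that of crush control. Replicates 1 and 2 were the males and replicates 3 and 4 the females, which also had fewer counts. The part of sex or depth in this split was not tested. The crush effect on Nat10 was 0.59 in control and -0.34 ± 0.16 in cKO neurons, a difference of -0.92 ± 0.22 (edgeR adjusted p = 0.0475). That call held in 3 of the 16 fits without 1 sample, namely without crush control replicate 2 or crush cKO replicates 1 or 2, and was lost in the other 13, at -0.83 to -0.97. With limma-voom it was not called (-0.92, adjusted p = 0.0569). It was called with DESeq2 (-0.91, DESeq2 adjusted p = 0.00609) and in edgeR with sex as a covariate. The interaction was below 0 in 31 of 44 members, with a median of -0.12 against -0.02 over all genes, and it reached -0.78 ± 0.39 in Rrp12, -0.75 ± 0.23 in Utp20 and -0.63 ± 0.25 in Mybbp1a without passing the threshold. Over the 44 members the crush effects in control and cKO neurons, which come from separate samples, had the same sign in 27 (61.4%), against 66.6% over all genes.

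**Figure D3:**
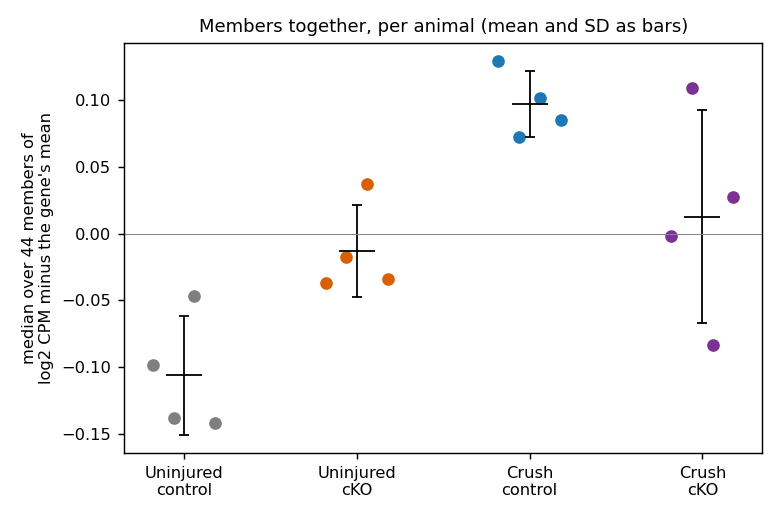
Median over the 44 members of log2 CPM minus each gene's mean over 16 samples (y axis), for each sample by group (x axis); points are samples, bars the mean and SD of 4. Crush control samples lie between 0.07 and 0.13, all above the uninjured control samples between -0.14 and -0.05, while crush cKO samples spread from -0.08 to 0.11.

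The fourth question was what loss of Tsc2 did in crushed neurons. No member rose and 2 fell, 4.55% called against 6.59% of all genes (3.38% upwards and 3.21% downwards). DESeq2 also called Nop14 upwards (edgeR: 0.48 ± 0.16, adjusted p = 0.082), as did edgeR without crush cKO replicate 3, and edgeR without crush cKO replicate 1 called Npm1 upwards. The median log2 change was -0.08 with 16 of 44 members above 0. In no member was every cKO sample higher and in 3 every one was lower, against 6.87% and 6.35% of all genes. Ddx10 had 52.3, 47.9, 45.6 and 47.1 CPM in crush control and 37.5, 40.2, 25.4 and 24.5 CPM in crush cKO samples. The groups did not overlap, and cKO replicates 3 and 4 were the lowest, for a log2 change of -0.59 ± 0.15 (edgeR adjusted p = 0.0234). The call was lost without crush control replicate 1 (-0.55) or crush cKO replicates 3 (-0.49) or 4 (-0.50). Polr1c, a subunit of polymerases I and III, had 48.1, 54.2, 51.9 and 56.1 CPM in crush control and 34.2, 37.4, 23.3 and 44.4 CPM in crush cKO samples, lower in each. Its log2 change was -0.59 ± 0.16 (adjusted p = 0.0364), and the call held in 8 of the 16 fits. It was lost without uninjured cKO replicate 2, any 1 of the 4 crush control samples, or crush cKO replicates 1, 2 or 3, at -0.43 to -0.63.

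The other polymerase I subunits after crush were at 0.00 ± 0.17 (Polr1a), 0.02 ± 0.30 (Polr1b) and -0.29 ± 0.14 (Polr1d), and Rrn3, with 409, 377, 459 and 311 CPM in crush cKO samples, at 0.04 ± 0.15. Over the 44 members the deletion effects without injury and after crush, again from separate samples, had the same sign in 29 (65.9%) against 67.3% over all genes. Summed satellite glia markers and summed lymphocyte and neutrophil markers, given above, were highest in crush cKO samples, and 1 of 10 and 2 of 4 tested markers rose in this comparison. Summed vascular and fibroblast markers did not overlap between the groups and were higher in crush cKO samples, with 2 of 12 tested markers called upwards, 11 above 0 and a median log2 change of 1.30. Their part in the results was not tested.

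**Figure D4:**
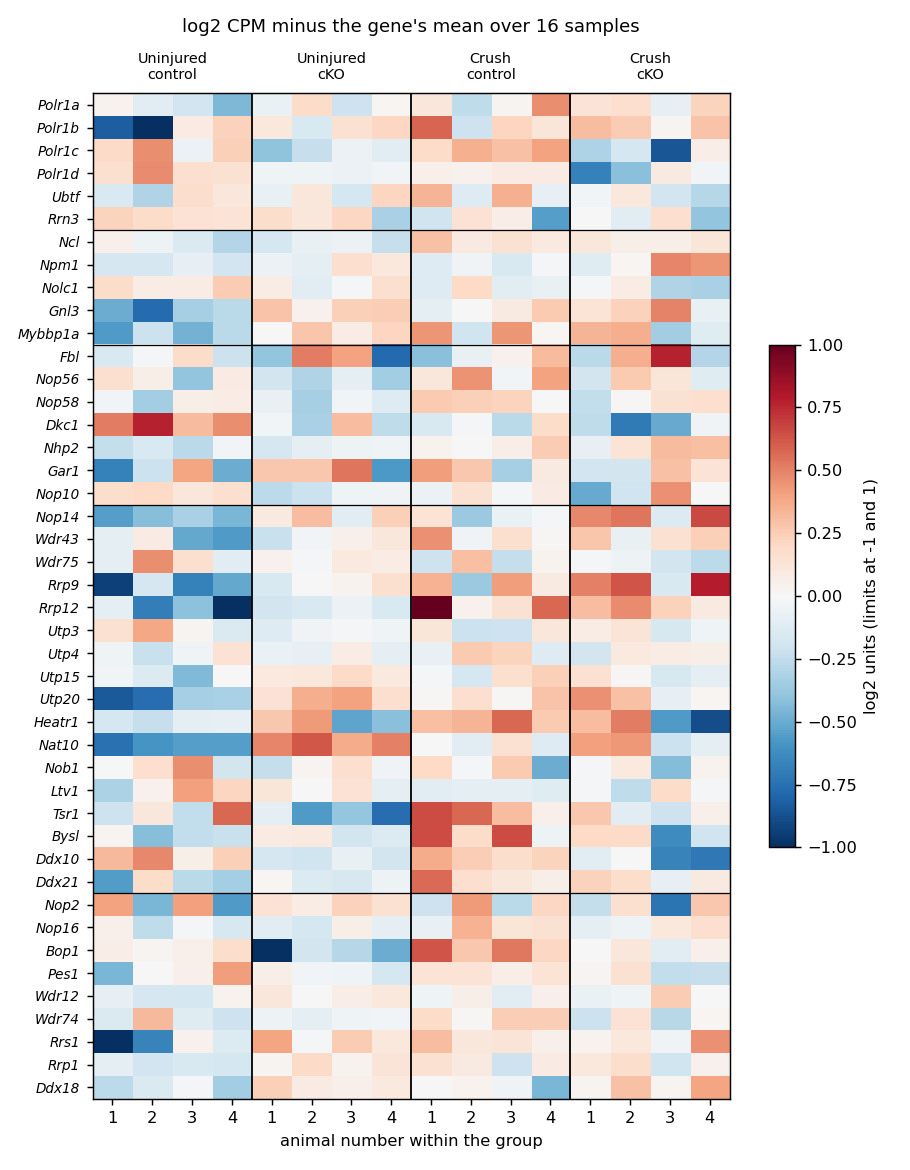
Log2 CPM minus the gene's mean over 16 samples (colour, limits at -1 and 1) for 44 members (rows, by role) in 16 samples (columns, by group and number). Nat10, Utp20 and Gnl3 are low in the 4 uninjured control samples, and Dkc1 is high in them.

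Members did not vary as 1 block. Across the 16 samples the correlation of a member with the mean of the other members, each standardised, ran from -0.56 (Dkc1) and -0.51 (Rrn3) to 0.69 (Rrp12) and 0.72 (Ddx21), a description over samples of 4 groups. Aliquots of 1 sample differed by a median SD of 0.349 log2 units over the members, and samples of 1 group by 0.210. The SD between aliquots was above 1 for Rrp9 (1.38), Heatr1 (1.14), Fbl (1.11) and Ddx21 (1.07), and 5 of 2112 aliquot values were 0. By that measure Ncl (0.144) was among the most even members.

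Other genes of the same pathway were counted for comparison. Of 125 further ribosome biogenesis genes tested, from polymerase I and SL1 subunits, small and large subunit factors, snoRNP assembly factors and the RNA exosome, crush in control neurons raised 13 (10.4%, against 11.0% of all genes) and lowered 5 (4.0%, against 8.68%), with a median log2 change of 0.09. Among 42 other small subunit factors 6 rose and 0 fell, with Riok3, a kinase of pre-ribosome maturation, at 1.32 ± 0.10, Nop9 at 1.34 ± 0.22 and Noc4l at 0.89 ± 0.16. Among 50 other large subunit factors 7 rose and 0 fell, with Eif6, which keeps subunits from joining too early, at 0.87 ± 0.11, Sbds, which helps release it, at 0.46 ± 0.08, and Surf6 at 1.08 ± 0.24. The exosome, which trims and degrades RNA, had 0 rises and 3 falls among 13 genes, C1d at -0.45 ± 0.11, Mtrex at -0.59 ± 0.15 and Mphosph6 at -0.44 ± 0.12. Of 9 further polymerase I and SL1 genes 2 fell, Taf1a (-0.77 ± 0.22) and Taf1b (-0.44 ± 0.14), both of the SL1 promoter factor, and of 11 snoRNP assembly factors none was called.

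With Tsc2 deleted and no injury, 14 of the 125 rose (11.2%, against 11.7% of all genes) and 13 fell (10.4%, against 9.02%), with a median of 0.01. Riok3 (0.69 ± 0.10), Dhx37 (0.96 ± 0.18) and Nop9 (1.06 ± 0.21) rose among 7 small subunit factors, where 4 fell. Of the large subunit factors 5 rose, among them Sbds (0.45 ± 0.08), Eif6 (0.51 ± 0.11) and Senp3 (0.71 ± 0.17), and 3 fell. Taf1b (-0.69 ± 0.14) and Taf1a (-0.84 ± 0.22) fell, as did Mphosph6 (-0.52 ± 0.12), Mtrex (-0.60 ± 0.15) and C1d (-0.37 ± 0.11) of the exosome, and the snoRNP assembly factors Naf1 (1.13 ± 0.37), Pih1d1 (0.48 ± 0.16) and Rpap3 (-0.43 ± 0.10) were called in both directions. In crushed cKO neurons 1 of the 125, Riok3 (0.59 ± 0.10), rose relative to uninjured cKO and 0 fell. After crush, deletion raised Utp23 (0.61 ± 0.17) and lowered Ddx56 (-0.47 ± 0.12). The interaction was called for Riok3 (-0.73 ± 0.14).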

How the data were processed

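The authors deposited 1 file of raw counts by Ensembl gene for every library. The submitters' processing notes name mm10, FastQC, STAR, HTSeq and DESeq2, with no versions given in the sources used here. Per the labels' protocols, libraries were made with the SMARTer Ultra Low RNA kit and read as single 50-base reads; that kit marks no strand and no molecular identifiers are named, so antisense overlaps cannot be resolved and counts include amplification copies. HTSeq's summary lines in the deposited files were left out of the totals: of all counts, reads outside genes made up 5.92 to 19.4%, ambiguous reads 1.92 to 2.58% and reads with several alignments 37.5 to 46.1%. The authors also deposited a table with log2 fold changes and p-values for 3 comparisons; which group was the reference is not stated in the sources used here.

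Aliquot counts were summed per sample (n = 4 per group) and tested with edgeR 4.0.16 in R 4.3.3 (TMM scaling, filterByExpr, 1 mean per group, two-sided quasi-likelihood test, Benjamini-Hochberg adjustment over 19048 genes, threshold 0.05). An SE is the log2 change divided by the square root of F. Log2 CPM used a prior count of 2. The p-values measure the spread between samples, since the labels do not say more of the replicates than that they are biological. Coordinates and exon lengths came from GENCODE M21. Alternatives were DESeq2 1.42.0, limma-voom (limma 3.58.1), other scalings, no filter, sex as a covariate, a replicate block, only the groups compared, and each sample left out. Members and gene lists were chosen with earlier results of these data known. Named with values were called members (up to 12 per comparison), with the value in every sample for the 3 with the smallest p and the most abundant of each role, and up to 3 called genes per further list; Dkc1, Bop1 and members of complexes with a called gene were added after their values were seen. A gene that the rule names among the further lists is not reported here.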

Additional observations from a re-analysis of the deposited data

Results flagged for a closer look

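Of 48 sets of 4 samples checked (11 members shown by sample and the median over all members, in each group), 2 held a sample far from the other 3; chance gives about 1 in 20 such sets. Both were of Utp4: uninjured cKO replicate 3 at 65.5 CPM, against 58.2 to 59.2 CPM in the others, and crush cKO replicate 1 at 54.6 CPM, against 64.8 to 66.6 CPM. The effect of crush on Nat10 differed between the genotypes by -0.92 on the log2 scale (edgeR adjusted p = 0.0475), with the limits given above.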

How the results depend on the processing

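Over 25 alternatives to the fit, no result changed its direction among the called genes, and the calls of Rrp12, Utp20, Gnl3 and Nat10 (crush in control) and of Nat10, Utp20 and Gnl3 (deletion without injury) held in all 25. For crush in control, Ncl was lost with upper-quartile scaling and Rrp9 with sex as a covariate. Without the filter Ncl, Bysl and Rrp9 were lost, and with only the groups compared these and Mybbp1a. For deletion without injury, Mybbp1a was lost with RLE scaling, Ddx10 with total count only, both without the filter, and Bop1 with only the groups compared. The count of members called after crush in control was 9, and 5 to 12 over the 9 settings other than leaving out a sample. It was 5 when only the groups compared entered the fit and 12 with scaling by total count only. For crush in cKO it was 0, and 1 with DESeq2. For deletion without injury it was 8, and 6 to 9 over those settings. For deletion after crush it was 2, with 0 for only the groups compared and 3 for DESeq2. For the interaction it was 1, and 0 with limma-voom, without the filter on low counts and with a replicate block. Leaving out 1 sample gave counts of 4 to 12 (crush in control), 0 to 1 (crush in cKO), 4 to 10 (deletion without injury), 0 to 2 (deletion after crush) and 0 to 1 (interaction). The first was 4 without crush control replicate 1 and 5 without crush control replicate 3; the fourth was 0 without crush control replicate 1. With 1 sample left out, median member log2 changes ranged from 0.21 to 0.25, -0.0196 to 0.0576, 0.0342 to 0.1234, -0.1077 to -0.0189 and -0.16 to -0.11 in the same order. Over the 9 other settings (8 for the interaction) they ranged from 0.20 to 0.27, -0.0474 to 0.0039, 0.0551 to 0.1281, -0.1086 to -0.0687 and -0.20 to -0.08, the interaction at -0.20 with scaling by total count only. The cause of these shifts was not tested, apart from the fewer samples of some fits. The replicate block matched equal numbers within a genotype for both crush comparisons and the interaction. For the deletion comparisons it matched equal numbers across the genotypes, which are different mice. It called 8, 0, 7, 2 and 0 members in that order. It ended the calls of Mybbp1a (0.56, edgeR adjusted p = 0.0688) and Rrp9 (0.70, 0.0982) for crush in control, where Nhp2 was gained, and of Mybbp1a (0.52, 0.0716) for deletion without injury, and that of the Nat10 interaction (-0.95, 0.0692). Same-numbered samples correlated at 0.041 to 0.109 between the control groups and 0.063 to 0.152 between the cKO groups. Differently numbered samples correlated at -0.071 to 0.032 and -0.082 to 0.018, lower in each case. Across the genotypes, which are different mice, same-numbered samples also correlated above 0, at 0.0036 to 0.064, and differently numbered ones at -0.058 to 0.041. Numbers 1 and 2 were males and 3 and 4 females in every group. The correlations used deviations from group means, which sum to 0 within a group. They do not show whether equal numbers mark the same animal. The labels do not state pairs, and the main fit did not use the numbers, so it ignores any pairing of the sides. Genes with few counts had the largest SE, for crush in control 0.48 in Fbl, 0.34 in Gar1 and 0.30 in Polr1b.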

Other observations

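Of 22028 protein-coding genes 1.18% have an annotated snoRNA gene inside them. Of the 44 members 7 do, holding 21 snoRNA genes: Nop56 has 5, Nop58 4, Ncl, Gnl3 and Wdr43 3 each, Tsr1 2 and Dkc1 1. Levels of the snoRNAs themselves were not analysed here.

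In the authors' deposited table, which lists 8600 genes, 20 members appear. Of these, in the authors' deposited table, 10 have an adjusted p under 0.05 for uninjured cKO (4 up, 6 down), 11 for crush control (10 up, 1 down) and 16 for crush cKO (11 up, 5 down). Those shares of 50.0, 55.0 and 80.0% are close to or below the 59.9, 55.4 and 80.1% over all genes in the authors' deposited table. For Nat10 and uninjured cKO the authors' deposited table gives a log2 change of 1.08, and for Dkc1 -0.66. For crush cKO the authors' deposited table gives 0.68 for Utp20, 0.87 for Nat10 and -0.89 for Dkc1. Crush in cKO neurons gave -0.08, -0.34 and -0.30 here, so that column holds a different comparison. Mean Utp20 was 9.23 CPM in uninjured control, 16.3 in uninjured cKO, 14.7 in crush control and 15.3 in crush cKO samples. The deposited rise of Utp20 is near only that from uninjured control.

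The 5 genes outside the list whose levels most resembled the mean of the standardised members over the 16 samples were Usp13 (Pearson r = 0.935), Ube2g2 (0.910), M6pr-ps (0.907), Fam163a (0.896) and Ube4b (0.893), a description over samples of 4 groups. In crush cKO samples both males were above both females in 15 of 44 members (34.1%), Nat10, Utp20 and Ddx10 among them, against 23.2% of all genes, and below in 9 (20.5%), against 17.1%. In uninjured cKO samples males were above in 3 (6.82%, against 18.5%) and below in 12 (27.3%, against 18.2%). In uninjured control samples they were above in 8 (18.2%, against 19.3%) and below in 11 (25.0%, against 18.9%), and in crush control samples above in 7 (15.9%, against 14.6%) and below in 6 (13.6%, against 14.9%). The males of the crush cKO group had 47114987 and 63365268 counts and the females 42596960 and 36773198, and the part of sex or depth was not tested.

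Of other lists, crush in control neurons raised 4 and lowered 2 of 22 polymerase III subunits, with Polr3d at 0.90 ± 0.19 and Polr3b at 0.57 ± 0.13. Polr3g fell with deletion both without injury (-1.53 ± 0.21) and after crush (-1.37 ± 0.21). Of 8 MYC network genes tested, crush in control raised Myc (0.60 ± 0.19) and Mnt (0.59 ± 0.18) and lowered Mxd4 (-0.84 ± 0.19) and Mxi1 (-0.63 ± 0.19). Deletion without injury lowered Myc (-0.68 ± 0.19) and raised Mnt (0.52 ± 0.18), and deletion after crush lowered Myc (-0.90 ± 0.19) and raised Mxi1 (0.71 ± 0.19). Among 11 snoRNA host genes tested Snhg17 rose after crush in control (1.05 ± 0.34) and with deletion (1.10 ± 0.34), and Zfas1 fell with deletion (-0.70 ± 0.21).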
